A study of Mus musculus with 6 samples.

Results

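Voltage-gated sodium and calcium channel genes were followed in mouse cerebral cortex 2 weeks after an injection of resveratrol, a polyphenol made by plants. The members were the genes of the deposited expression table whose symbol begins with Scn and a digit, or with Cacna, Cacnb or Cacng, and 32 of its 13582 genes met this rule. They comprise 15 pore-forming subunits and 17 auxiliary subunits, of which 11 belong to sodium channels and 21 carry calcium channel names. Another 8 genes of these families were not found by symbol in the deposited table and were not analysed here. The resveratrol group held 3 C57BL/6 mice that had received 10 mg/kg once by the intraperitoneal route, and the vehicle group held 3 mice of the same strain injected once with vehicle. All were 10 weeks old at sacrifice, and RNA came from the right cortex. The dose field of the vehicle mice also reads 10 mg/kg, and from the treatment text it was taken that they received no resveratrol. The series title places the comparison in the long-lasting tolerance to ischemia that resveratrol preconditioning gives, and the labels name no ischemia in these mice.

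A voltage-gated channel has a large pore-forming subunit, called alpha, that opens when the membrane is depolarized, and smaller auxiliary subunits that set its gating and its delivery to the membrane. Sodium channels at the axon initial segment and along the axon start and carry action potentials. Calcium channels couple depolarization to transmitter release, to dendritic signalling and to transcription, and most genes named as calcium channel gamma subunits encode TARPs, which accompany AMPA-type glutamate receptors. In bulk cortex, fewer cells of a type and less RNA per cell cannot be told apart, so every level below is that of the tissue.

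Levels are in FPKM, which counts sequenced fragments relative to transcript length and to the library's total, and so allows genes to be set side by side. The FPKM of all genes summed to between 351731 and 397876 per library, and the sequencing depth is unknown. All 32 members were measured in all 6 libraries. Of the 7 markers of excitatory cortical neurons, all were measured, with sums of 874, 994 and 949 FPKM in the resveratrol mice and 882, 1092 and 824 FPKM in the vehicle mice. All 10 markers of striatal projection neurons were measured as well, each with a mean of at least 9.04 FPKM, and they summed to 289, 602 and 403 FPKM in the resveratrol mice and 857, 496 and 333 FPKM in the vehicle mice. In several libraries the deviations from the mean of the 6 went with transcript length or GC content across 13432 genes. The Spearman correlation with length was 0.00199, -0.134 and -0.327 in resveratrol mice 1, 2 and 3, and 0.31, 0.476 and -0.503 in vehicle mice 1, 2 and 3. With GC content it was -0.462, 0.227 and 0.568 in the resveratrol mice and -0.345, 0.0559 and -0.0341 in the vehicle mice. Pore subunits have long transcripts, with a median of 9560 bases against 3705 for the auxiliary subunits and 3460 for all genes with sequence data.

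No channel gene passed the test across all genes for a difference between resveratrol and vehicle cortex, and most had slightly lower means in the resveratrol mice. Of the 32 members, 0 passed limma at an adjusted p under 0.05, where 1 of 13574 genes (0.00737%) passed. In 0 of 32 members did all resveratrol mice lie on one side of all vehicle mice, against 6.28% of all genes. An unadjusted p under 0.05 was found for 1 member, Scn9a, against 2.42% of all genes. The log2 fold change, on the scale of log2(FPKM + 0.5) and taken as resveratrol minus vehicle, was below 0 in 26 of 32 members (81.2%) against 43.9% of all genes, and the 2 groups of mice overlapped in every member. The median was -0.13 for the 15 pore subunits, of which 13 were on the lower side, -0.07 for the 17 auxiliary subunits, of which 13 were, and 0.02 for all genes. This balance rested on single vehicle libraries. Without vehicle 2, the members split into 16 higher and 16 lower, with medians of 0.04 for pore and -0.00 for auxiliary subunits. Without vehicle 3, 27 were lower and the medians were -0.36 and -0.17, and 12 of 32 members then had an unadjusted p under 0.05, where 2354 of 13574 genes (17.3%) did. The smallest limma adjusted p of a member was 0.0965 in that setting. With all 6 libraries and a correction for transcript length and GC content, 21 of 32 members were lower, against 45.4% of all genes. Before that correction, the log2 fold change had a Spearman correlation with transcript length of -0.315 over 13432 genes and -0.112 over the 32 members.

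**Figure D1:**
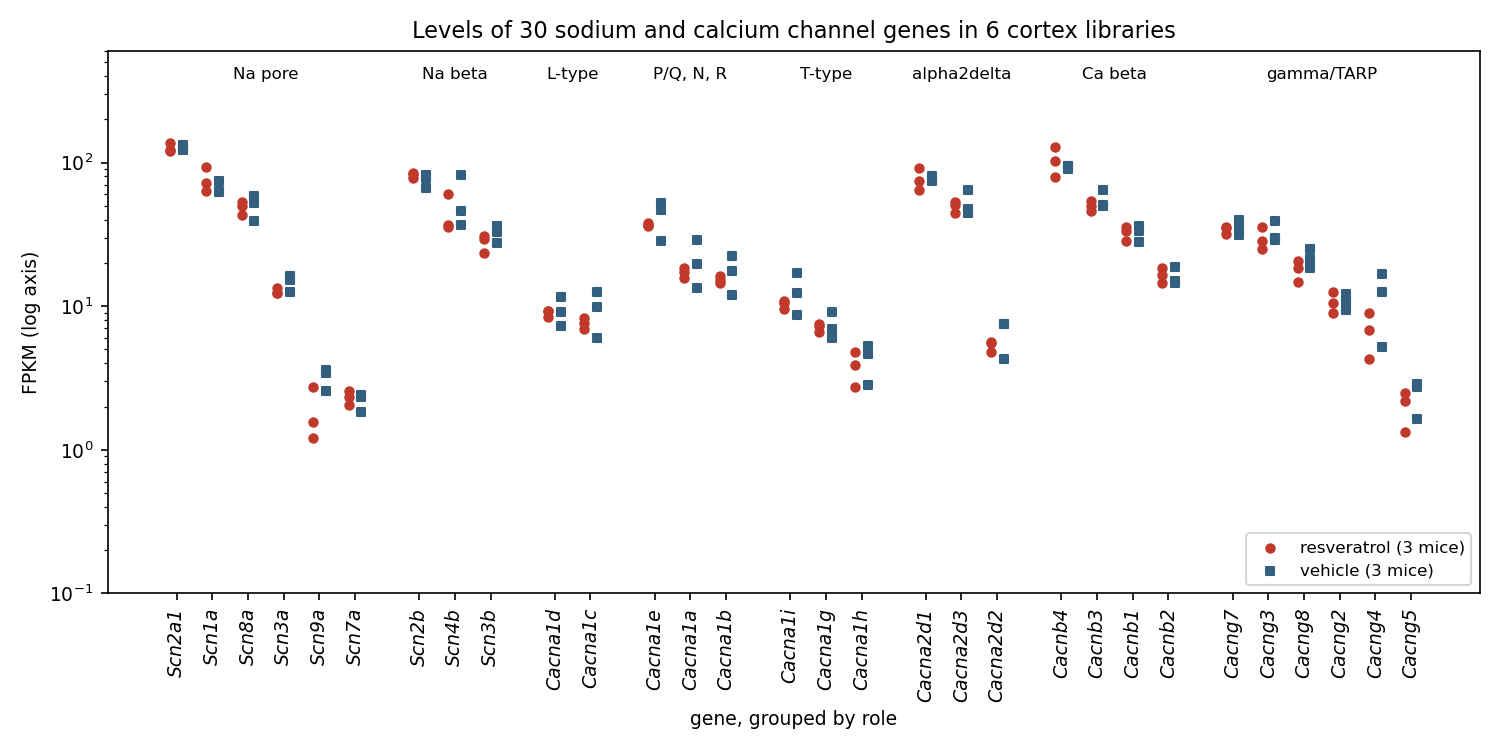
Level in FPKM (log axis) of 30 channel genes in single mice, grouped by role, with resveratrol mice as circles and vehicle mice as squares. Scn2a1 and Cacnb4 are among the highest and Scn7a and Cacng5 among the lowest, and in no gene are the circles and squares fully apart.

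In the authors' deposited table, 101 of 13582 genes (0.744%) have a q-value under 0.05, 15 of them higher and 86 lower in the resveratrol mice. Of the members, 2 of 32 (6.25%) are among those genes in the authors' deposited table, and both are lower. Cacng4, which encodes a TARP, has a log2 fold change of -0.79 and a q-value of 0.0184 in the authors' deposited table. Scn9a, the pore of a sodium channel best known from peripheral sensory neurons, has a log2 fold change of -0.81 and a q-value of 0.0305 in the authors' deposited table. With limma, both had an adjusted p of 0.987. Their values in single mice are given with their families.

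Sodium channel pores were carried mainly by 3 genes. Scn2a1 (Scn2a in current annotation), the pore found along axons of excitatory neurons, had 136, 123 and 120 FPKM in the resveratrol mice and 132, 126 and 123 FPKM in the vehicle mice. Its log2 fold change was -0.01 ± 0.10 (SE, n = 3 each), and the groups lay on top of each other. Scn1a, the pore of inhibitory interneurons that is mutated in Dravet syndrome, had 92.9, 71.8 and 63.1 FPKM in the resveratrol mice and 62.1, 63.6 and 74.2 FPKM in the vehicle mice. Resveratrol 1 stood above the other 5 libraries, and the rest of both groups overlapped. Scn8a, the pore that is concentrated at the axon initial segment and nodes of Ranvier, had 52.7, 49.9 and 42.9 FPKM in the resveratrol mice and 52.3, 58.8 and 39.3 FPKM in the vehicle mice. The vehicle mice spanned the wider range here and enclosed all 3 resveratrol mice. In the makeup of the sodium channel pool, the share of Scn2a1 was steady and those of Scn1a and Scn8a varied more. Scn2a1 made up 45.7% to 49.2% of the summed sodium pore FPKM over the 6 libraries, Scn1a 23.1% to 31.2% and Scn8a 15.4% to 21.8%. The sum itself was 298, 263 and 244 FPKM in the resveratrol mice and 269, 270 and 256 FPKM in the vehicle mice, so the groups overlapped.

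The other sodium channel pores described here were at lower levels than these 3 genes. Scn3a, a pore that is most abundant before birth, had 12.4, 13.4 and 12.3 FPKM in the resveratrol mice and 16.2, 15.3 and 12.5 FPKM in the vehicle mice. Vehicle 1 and vehicle 2 were above all resveratrol mice, while vehicle 3 lay among them. Scn7a, a sodium-sensing relative of the family that is not gated by voltage in the usual way, had between 1.82 and 2.56 FPKM in all libraries.

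Scn9a had the smallest p of all members. It had 1.21, 1.57 and 2.74 FPKM in the resveratrol mice and 3.45, 2.57 and 3.62 FPKM in the vehicle mice. Resveratrol 1 and resveratrol 2 were below every vehicle mouse, and resveratrol 3 was above vehicle 2, so the groups overlapped by 1 pair of mice. The log2 fold change was -0.71 ± 0.23 (SE, n = 3 each), and limma gave an unadjusted p of 0.0133 and an adjusted p of 0.987. The log2 fold change stayed on the lower side in all 18 alternative settings, including -0.64 after correction for transcript length and GC content and -0.87 with vehicle 3 as the sole vehicle mouse. Scn9a lies on chromosome 2 (GRCm38, 66480080 to 66634962, minus strand) and its exons overlap Gm13629 on the opposite strand. Whether the authors' quantification used strand is not given in the sources used here. Scn9a shares 4.04% of its 50-base stretches with other genes, mostly with Scn3a. Its RefSeq promoter window (GRCm38.p6, chr2:66634913-66635212, minus strand), from 250 bases before to 50 bases after the annotated start, is shown because the gene had the smallest p. The capitals mark CG dinucleotides, of which it has 9 against a median of 7 in all 32851 mouse windows.
Scn9a: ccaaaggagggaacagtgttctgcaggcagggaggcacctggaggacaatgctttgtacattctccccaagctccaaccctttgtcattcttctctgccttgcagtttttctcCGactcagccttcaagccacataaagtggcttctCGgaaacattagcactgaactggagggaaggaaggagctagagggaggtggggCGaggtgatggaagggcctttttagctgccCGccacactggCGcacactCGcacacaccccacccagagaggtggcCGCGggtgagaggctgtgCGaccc

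**Figure D2:**
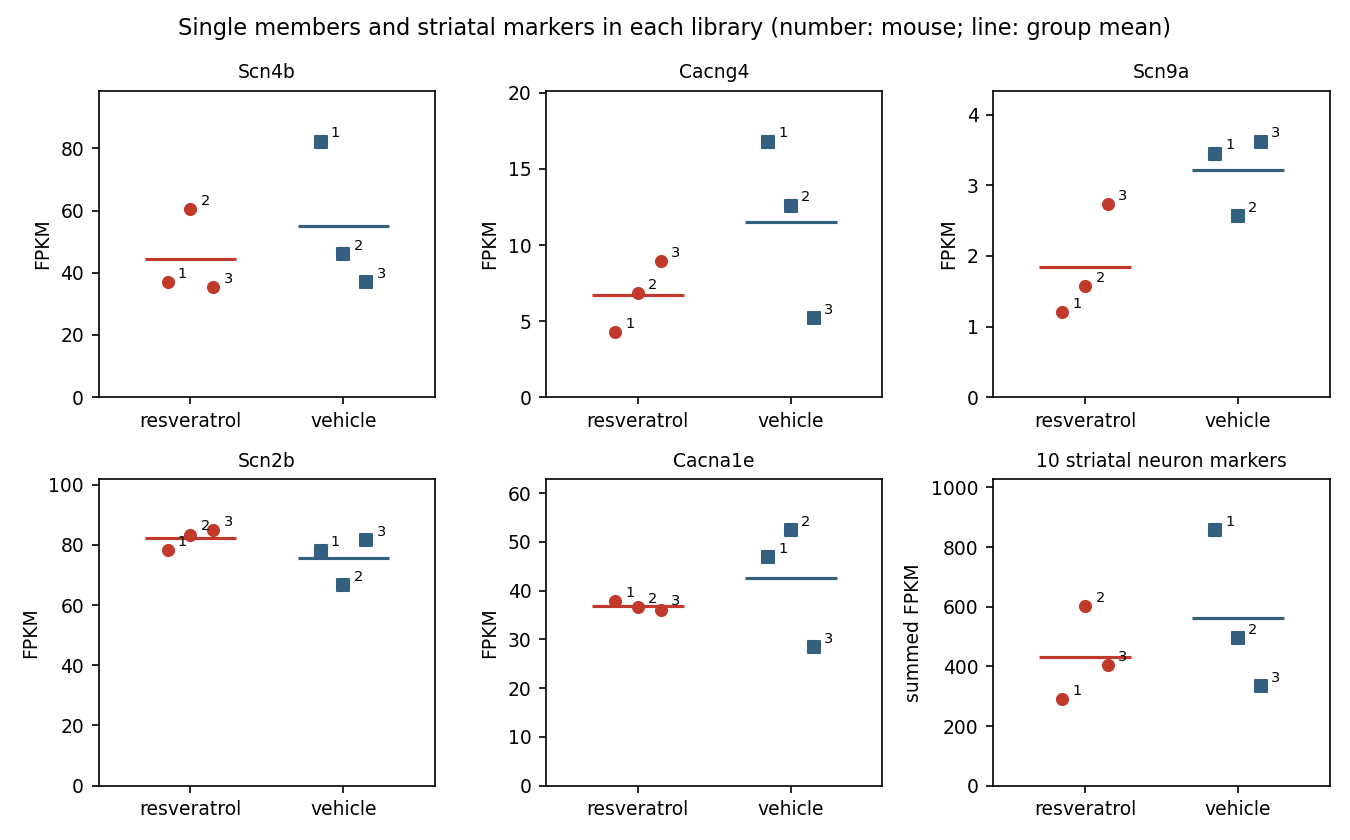
FPKM in single mice (numbered points, resveratrol left and vehicle right, lines at group means) for 5 members, and the summed FPKM of 10 striatal neuron markers. Scn4b and the striatal markers are both highest in vehicle 1, with 82.2 FPKM for Scn4b and 857 FPKM for the markers, and resveratrol 2 is the highest of its group in both.

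Sodium channel beta subunits, single-pass proteins that tune gating and act in cell adhesion, differed in direction from gene to gene, with 2 of 4 on the higher side and 0 of 4 past the threshold. Scn2b had 78.3, 83.4 and 84.9 FPKM in the resveratrol mice and 78.1, 66.7 and 81.7 FPKM in the vehicle mice. Vehicle 2 was the lowest and the other 5 libraries lay close together. Scn3b averaged 27.7 ± 3.93 FPKM in the resveratrol mice and 32.2 ± 4.4 FPKM in the vehicle mice (SD, n = 3 each).

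Scn4b, the beta subunit linked to resurgent sodium current and abundant in the striatum, was the most variable of these 4 genes. It had 36.9, 60.6 and 35.4 FPKM in the resveratrol mice and 82.2, 46 and 36.9 FPKM in the vehicle mice. Vehicle 1 was the highest, resveratrol 2 came next, and the groups overlapped. The summed markers of striatal projection neurons, given above, were highest in the same 2 libraries, all 10 of these markers had a lower mean in the resveratrol mice (median -0.33 on the log2 scale), and none passed the threshold. Their part in the values of Scn4b was not tested. The ratio of Scn4b to Scn2b in FPKM was 0.471, 0.726 and 0.418 in the resveratrol mice and 1.05, 0.691 and 0.451 in the vehicle mice.

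Scn2b and Scn4b are next to each other on chromosome 9 on the plus strand, Scn2b from 45117782 to 45130070 and Scn4b from 45138395 to 45154152 (GENCODE M21, GRCm38), and Scn2b was steady across mice where Scn4b was not. Their RefSeq windows are shown for that contrast, with CG dinucleotides in capitals (GRCm38.p6, plus strand, chr9:45117626-45117925 for Scn2b and chr9:45138374-45138673 for Scn4b). The Scn2b window has 2 CG dinucleotides and 38.3% GC, and the Scn4b window has 26 and 66.3%.
Scn2b: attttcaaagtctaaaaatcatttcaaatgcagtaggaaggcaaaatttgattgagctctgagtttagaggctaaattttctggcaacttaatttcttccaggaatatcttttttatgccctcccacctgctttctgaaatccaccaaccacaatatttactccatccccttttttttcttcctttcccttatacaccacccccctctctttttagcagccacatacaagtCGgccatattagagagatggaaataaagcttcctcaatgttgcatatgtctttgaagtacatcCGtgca
Scn4b: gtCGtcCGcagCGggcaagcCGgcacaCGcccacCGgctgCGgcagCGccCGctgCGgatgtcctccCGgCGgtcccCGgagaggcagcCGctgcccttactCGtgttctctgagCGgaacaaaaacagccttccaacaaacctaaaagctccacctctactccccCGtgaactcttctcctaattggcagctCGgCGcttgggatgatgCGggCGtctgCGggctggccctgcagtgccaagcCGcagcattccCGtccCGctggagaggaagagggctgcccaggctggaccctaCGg

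RefSeq windows were matched for 24 members, 35 windows in all. The median number of CG dinucleotides was 9 in 15 windows of pore genes and 18.5 in 20 windows of auxiliary genes, against 7 in all windows. The letters GGGCGG (a GC box, searched on both strands) were in 14 of 35 member windows and 35.7% of all windows, TATAAA in 2 and 13.6%, CCAAT in 9 and 37.4%, and TGACGTCA (a cyclic AMP response element) in 0 and 1.79%. Of the 3 windows printed here, only that of Scn4b holds one of these motifs, a CCAAT box.

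Calcium channel pores had lower means in the resveratrol mice in 8 of 8 genes, and 0 of 8 passed the threshold. The log2 fold changes ran from -0.24 to -0.02 around a median of -0.14. The vehicle mice were the more scattered group. The 8 genes summed to 109, 109 and 104 FPKM in the resveratrol mice and to 127, 159 and 84.6 FPKM in the vehicle mice, with means of 107 ± 3.04 and 123 ± 37.2 FPKM (SD, n = 3 each). Vehicle 2 was the highest library for all 8 genes, and vehicle 3 was the lowest for 7 of 8, with Cacna1h the exception. For 5 of 8 genes the 3 resveratrol mice lay together in the gap between vehicle 3 below and the other vehicle mice above. Without vehicle 2, 6 of the 8 log2 fold changes were above 0, and after the correction for length and GC content 2 were.

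**Figure D3:**
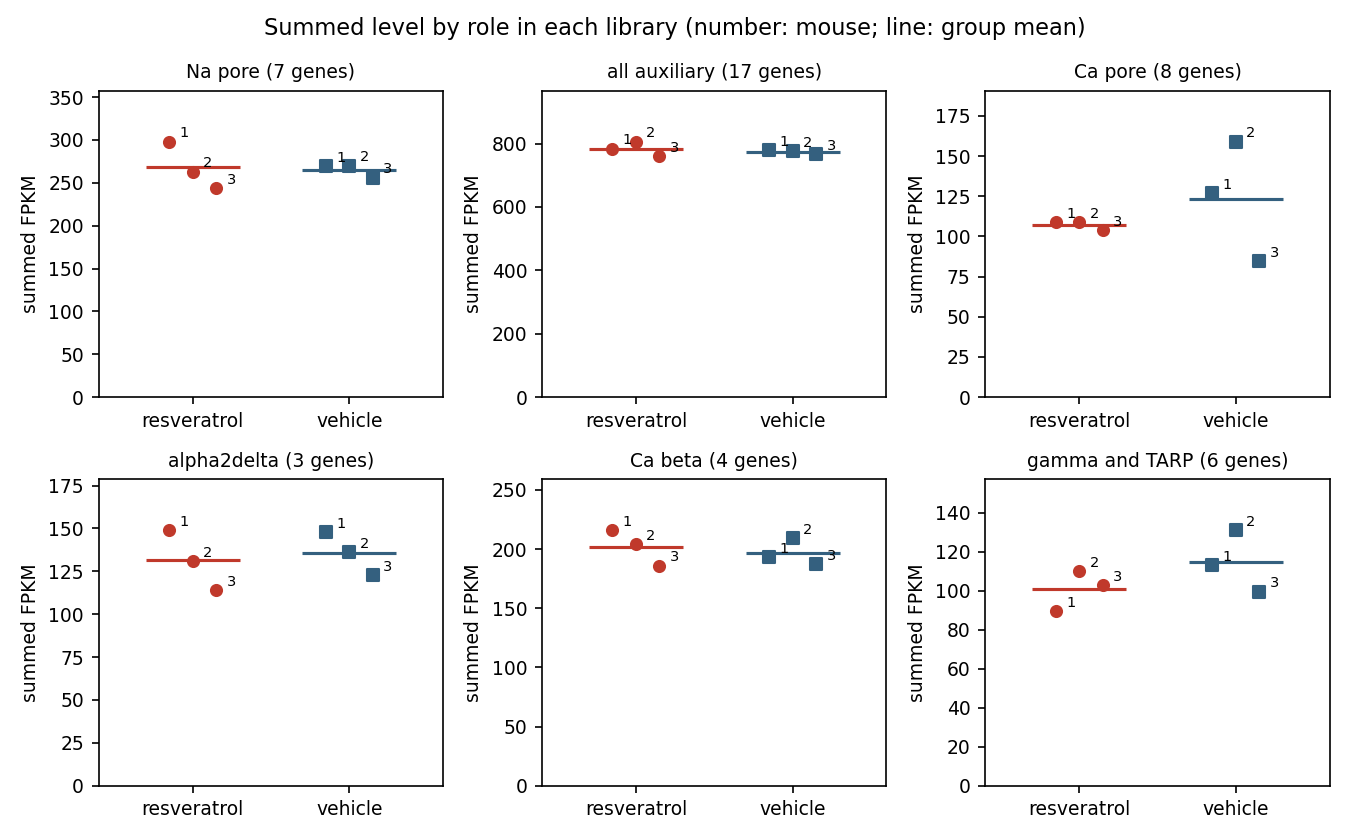
Summed FPKM of 5 subunit classes and of all auxiliary subunits in single mice (numbered points, resveratrol left and vehicle right, lines at group means; axes start at 0). The calcium channel pore panel shows 104 to 109 FPKM in the resveratrol mice inside the range of 84.6 to 159 FPKM in the vehicle mice.

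Among the pores of presynaptic calcium channels, Cacna1e, the R-type pore, was the highest. It had 37.9, 36.7 and 36.1 FPKM in the resveratrol mice and 46.8, 52.4 and 28.5 FPKM in the vehicle mice, and its log2 fold change of -0.16 ± 0.20 (SE, n = 3 each) became 0.01 without vehicle 2. Cacna1a, the P/Q-type pore that drives transmitter release at most central synapses, had 18.4, 17.4 and 15.6 FPKM in the resveratrol mice and 19.7, 28.7 and 13.4 FPKM in the vehicle mice. Its log2 fold change was -0.20 ± 0.23 (SE, n = 3 each), and 0.07 without vehicle 2. Both genes thus sat in the gap between the vehicle libraries, as did Cacna1b, the N-type pore, with 14.6 to 16.1 FPKM in the resveratrol mice and 12 to 22.2 FPKM in the vehicle mice. The balance among these genes hardly moved. Cacna1e made up 33% to 36.9% of the summed calcium pore FPKM over the 6 libraries, Cacna1a 15% to 18.1% and Cacna1b 13.8% to 14.8%.

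The L-type pores, which link depolarization to transcription in cell bodies and dendrites, were at lower levels. Cacna1c had 6.96, 7.66 and 8.28 FPKM in the resveratrol mice and 9.82, 12.5 and 5.97 FPKM in the vehicle mice, with a log2 fold change of -0.23 ± 0.22 (SE, n = 3 each) that became -0.01 without vehicle 2. Cacna1d, which opens at more negative voltages than Cacna1c, had 9.24, 9.31 and 8.42 FPKM in the resveratrol mice and 9.09, 11.5 and 7.24 FPKM in the vehicle mice, with a log2 fold change of -0.02 ± 0.16 (SE, n = 3 each). The resveratrol mice were inside the vehicle range for both genes. T-type pores open near rest and support burst firing. Cacna1i had 10.5, 10.9 and 9.57 FPKM in the resveratrol mice and 12.4, 17.1 and 8.69 FPKM in the vehicle mice, and a log2 fold change of -0.24 ± 0.20 (SE, n = 3 each), or -0.01 without vehicle 2. Cacna1g, the T-type pore of thalamic relay cells, averaged 7.15 ± 0.457 FPKM in the resveratrol mice and 7.37 ± 1.57 FPKM in the vehicle mice (SD, n = 3 each). Cacna1h averaged 3.82 ± 1.03 and 4.25 ± 1.27 FPKM in the same groups.

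The alpha2delta subunits, extracellular proteins that raise the number of calcium channels at the membrane and bind gabapentin in the case of Cacna2d1 and Cacna2d2, had lower means in the resveratrol mice in 3 of 3 genes (2 of 3 after the correction for length and GC content), and 0 of 3 passed the threshold. Their log2 fold changes had a median of -0.07. Cacna2d1 had 91, 74.9 and 64.6 FPKM in the resveratrol mice and 76.4, 80.9 and 74.4 FPKM in the vehicle mice, with a log2 fold change of -0.02 ± 0.13 (SE, n = 3 each). Here the resveratrol mice were the more scattered group. Cacna2d3 ranged from 44.2 to 53.2 FPKM in the resveratrol mice and from 44.7 to 64.5 FPKM in the vehicle mice. Cacna2d2, the least abundant of the 3, had 4.81, 5.53 and 5.66 FPKM in the resveratrol mice and 7.54, 7.57 and 4.27 FPKM in the vehicle mice, with a log2 fold change of -0.22 ± 0.20 (SE, n = 3 each). It was -0.47 without vehicle 3 and 0.29 with vehicle 3 as the sole vehicle mouse.

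The intracellular beta subunits of calcium channels, which bind the pore and carry it to the membrane, had 2 genes on each side and 0 of 4 past the threshold. Cacnb4 had 128, 102 and 79.9 FPKM in the resveratrol mice and 90.5, 94 and 94.9 FPKM in the vehicle mice. The 3 vehicle mice lay inside the resveratrol range, and the log2 fold change was 0.12 ± 0.16 (SE, n = 3 each), or -0.04 without resveratrol 1. Cacnb3 had 45.9, 50 and 53.8 FPKM in the resveratrol mice and 50.8, 64.4 and 49.5 FPKM in the vehicle mice, with a log2 fold change of -0.13 ± 0.13 (SE, n = 3 each). Vehicle 2 was the highest of the 6. Cacnb1, known for its role in skeletal muscle, averaged 32.3 ± 3.58 FPKM in the resveratrol mice and 32.4 ± 4.21 FPKM in the vehicle mice (SD, n = 3 each), and Cacnb2, prominent in heart, averaged 16.5 ± 2.02 and 16 ± 2.24 FPKM in the same groups. Per FPKM of calcium pore, the beta subunits had 1.99, 1.86 and 1.79 FPKM in the resveratrol mice and 1.52, 1.32 and 2.21 FPKM in the vehicle mice. The vehicle mice again spread to both sides of the resveratrol mice.

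The genes named as gamma subunits had lower means in the resveratrol mice in 6 of 6 cases, or 4 of 6 without vehicle 2, and 0 of 6 passed the threshold. The median of their log2 fold changes was -0.18. Cacng7, a TARP and the most abundant of them, had 31.6, 34.9 and 35.6 FPKM in the resveratrol mice and 31.1, 39.5 and 36 FPKM in the vehicle mice, with a log2 fold change of -0.06 ± 0.12 (SE, n = 3 each). Cacng8, the TARP abundant in hippocampus, had 14.8, 20.5 and 18.4 FPKM in the resveratrol mice and 21.2, 24.9 and 18.4 FPKM in the vehicle mice. Resveratrol 2 was above vehicle 3, so the groups overlapped. Cacng3 ranged from 25 to 35.5 FPKM in the resveratrol mice and from 28.9 to 39 FPKM in the vehicle mice. Cacng2, which encodes stargazin, ranged from 8.92 to 12.6 and from 9.41 to 12.2 FPKM in the same groups, and Cacng5 from 1.34 to 2.47 and from 1.64 to 2.86 FPKM.

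Cacng4 was the most variable member on the log2 scale, with an SD of 0.71 over the 6 libraries. It had 4.26, 6.85 and 8.95 FPKM in the resveratrol mice and 16.8, 12.6 and 5.2 FPKM in the vehicle mice. Vehicle 1 and vehicle 2 were above all resveratrol mice, and vehicle 3 was below resveratrol 2 and resveratrol 3. Its log2 fold change was -0.66 ± 0.38 (SE, n = 3 each), with a limma adjusted p of 0.987. The log2 fold change was -1.12 without vehicle 3, -0.32 without vehicle 1, and 0.28 with vehicle 3 as the sole vehicle mouse. The 10 striatal markers summed to 289, 602 and 403 FPKM in the resveratrol mice and 857, 496 and 333 FPKM in the vehicle mice. The 5 markers of oligodendrocyte precursors summed to 41.3, 47 and 51.8 FPKM in the resveratrol mice and 48.5, 55.2 and 48.4 FPKM in the vehicle mice. The part of either marker list in the values of Cacng4 was not tested. Cacng4 lies on chromosome 11 (GRCm38, 107732357 to 107794557, minus strand).

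**Figure D4:**
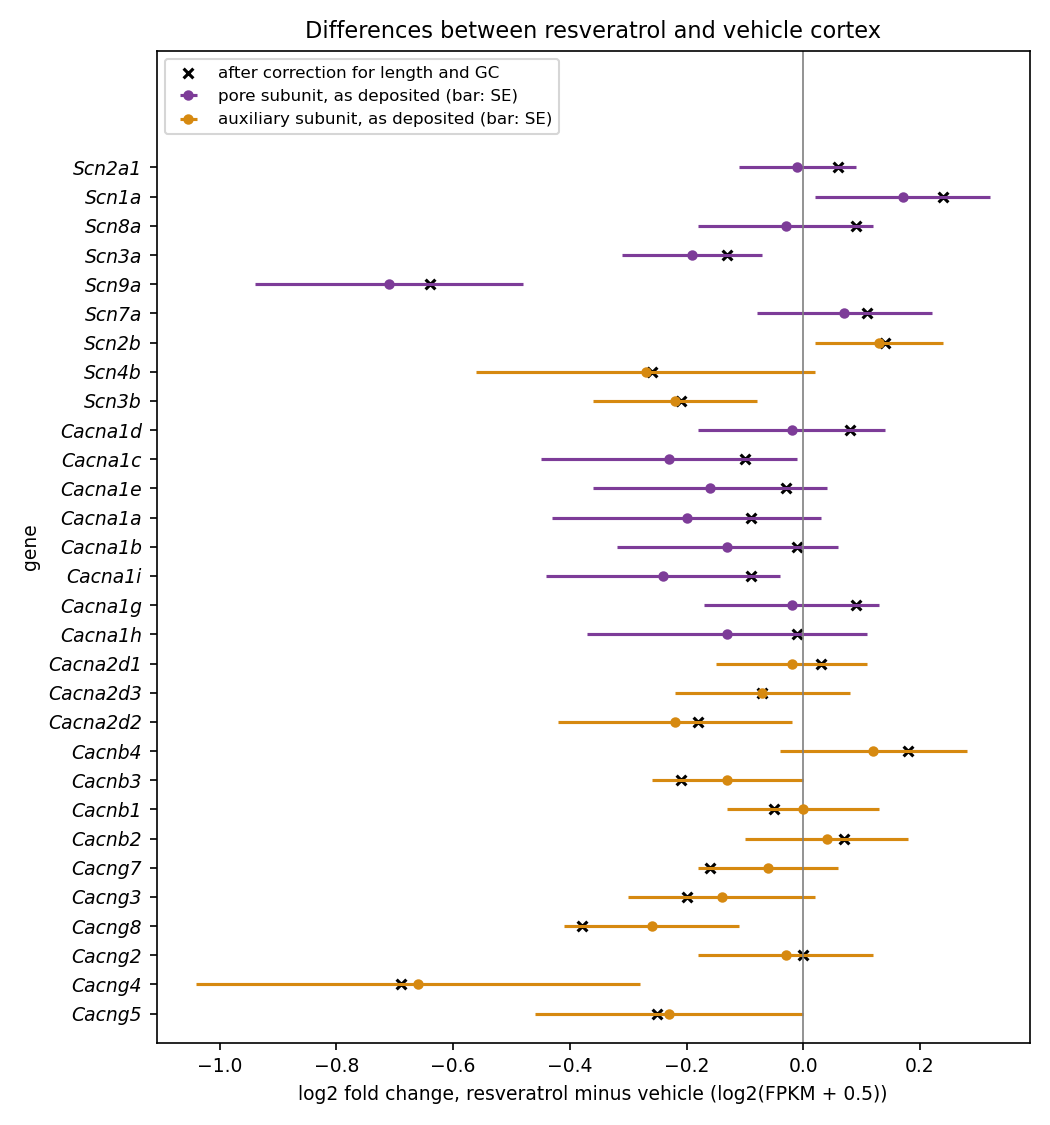
Log2 fold change of 30 members, resveratrol minus vehicle on the log2(FPKM + 0.5) scale, as deposited (points with SE, n = 3 each) and after correction for transcript length and GC content (crosses). Most points lie left of 0, with Scn9a at -0.71 and Cacng4 at -0.66 furthest, and the crosses of the calcium channel pores lie closer to or right of 0.

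Pore and auxiliary subunits were set against each other directly. Pore genes summed to 407, 372 and 348 FPKM in the resveratrol mice and 396, 429 and 341 FPKM in the vehicle mice. Auxiliary genes summed to 784, 806 and 760 FPKM in the resveratrol mice and 780, 777 and 766 FPKM in the vehicle mice. Auxiliary transcripts thus exceeded pore transcripts in every library, by a ratio of 1.93, 2.16 and 2.18 in the resveratrol mice and 1.97, 1.81 and 2.25 in the vehicle mice, and the groups overlapped. Averaged over the pore genes, the deviation from the mean of all 6 libraries was -0.13, -0.05 and -0.04 on the log2 scale in resveratrol mice 1, 2 and 3 and 0.11, 0.31 and -0.20 in vehicle mice 1, 2 and 3. For the auxiliary genes it was -0.15, 0.04 and -0.04 in the resveratrol mice and 0.16, 0.14 and -0.14 in the vehicle mice. In both classes vehicle 3 was on the other side of 0 from vehicle 1 and vehicle 2. Across 13432 genes, the correlation of the deviations with transcript length was 0.00199, -0.134 and -0.327 in the resveratrol mice. In the vehicle mice it was 0.31, 0.476 and -0.503. Across the 32 members it was 0.212, -0.387 and -0.314 in the resveratrol mice and 0.201, 0.269 and -0.328 in the vehicle mice. Whether transcript length had a part in these deviations was not tested. The correction for length and GC content turned the order of the medians. It gave -0.01 for pore and -0.16 for auxiliary subunits, and it did not bring any member past the threshold. With it, 11 of 32 members were on the higher side and 21 on the lower, where 45.4% of all genes were lower.

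**Figure D5:**
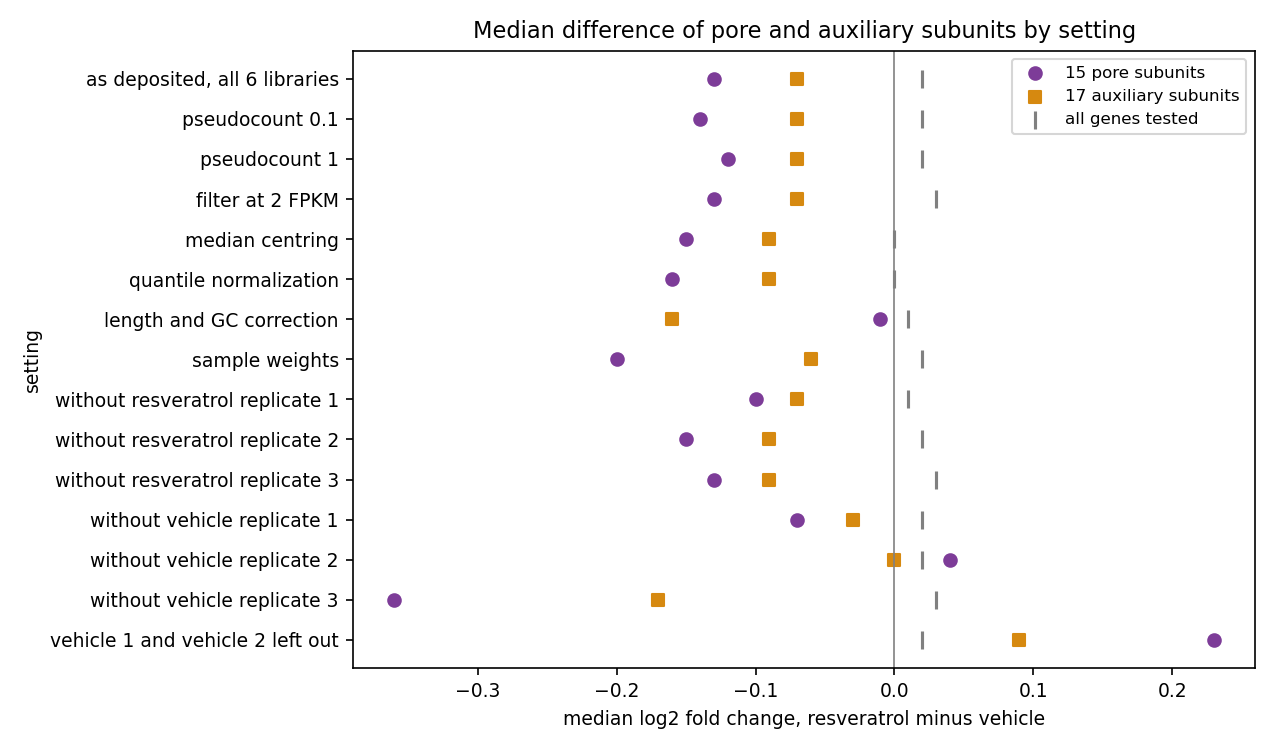
Median log2 fold change of 15 pore subunits (circles), 17 auxiliary subunits (squares) and all genes tested (bars) under the settings shown. Robust empirical Bayes, no filter on low values and the replicate block with and without correction are not drawn. The pore median runs from -0.36 without vehicle 3 to 0.23 with vehicle 3 as the sole vehicle mouse, while the median of all genes stays between 0.00 and 0.03.

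Partners of these channels were read from lists of the pathway, and 0 of their genes passed the threshold. Of 11 proteins that anchor channels at the axon initial segment and nodes, 8 had lower means in the resveratrol mice, the median was -0.07, and Ank2, an ankyrin, had the smallest p with a log2 fold change of -0.18 ± 0.15 (SE, n = 3 each). Of 4 fibroblast growth factor homologous factors, which bind the tail of sodium channels, 3 were lower, and Fgf13 had -0.29 ± 0.19. Of 13 tested regulators such as calmodulins and ubiquitin ligases, 7 were lower, and Cabp1, a calcium-binding protein that modulates calcium channels, had 0.26 ± 0.14. Of 10 presynaptic scaffolds of calcium channels, 6 were lower, and Rims3, an active zone protein, had 0.37 ± 0.17. In the sodium leak channel complex 2 of 4 genes were lower, and Fam155a, an accessory protein of that channel, had 0.07 ± 0.11. Of 4 AMPA receptor pore subunits 2 were lower, and Gria4 had 0.16 ± 0.13. The medians of the last 5 lists ran from -0.13 to -0.01.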

How the data were processed

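Each of the 6 libraries was made from total RNA of 1 mouse, per the labels' protocols, with a stranded kit and ribosomal RNA removed. As the design text counts 3 mice in each group, p-values measure the spread between these mice. The submitters' processing notes list STAR, Cufflinks, Cuffdiff and GRCm38 without versions. For the annotation and the use of strand, nothing is given in the sources used here. The table holds FPKM per library computed by the authors, per the file headers, beside the authors' log2 fold change and the p-value and q-value that they deposited. Loci in the table were not used, and coordinates come from GENCODE M21 (GRCm38), where all 32 members were found by symbol.

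The test was limma 3.58.1, run in R 4.3.3 with its trend option on log2(FPKM + 0.5), and genes whose mean was under 0.5 FPKM were left out. P-values are two-sided, with Benjamini-Hochberg adjustment over 13574 genes and a threshold of 0.05. This scale understates the change of low genes. Errors are SD for means and SE for log2 fold changes. The 2 genes with a failed value were left out. The scripts were tested on simulated data. The members and all gene lists were chosen with earlier results of these data known. Every member could be named with its level, and 2 of them, which count in the totals and medians, are not reported here singly. In each subunit class, log2 fold changes with SE are given for the most abundant member and the one with the smallest p. This applies only where that member is reported singly. They are also given for the companion with the smallest p in each list. Alternatives were other pseudocounts and filters, median centring, quantile normalization, a loess correction of each library for transcript length and GC content, robust empirical Bayes, sample weights (estimated gene by gene, since the default estimate did not converge), the replicate number as a block, and libraries left out.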

Additional observations from a re-analysis of the deposited data

How the results depend on the processing

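Under 18 alternative settings, 13 members with printed errors gave 234 values, of which 203 kept their direction and their side of the threshold, 3 newly passed it and 28 changed sign. The count of genes past the threshold in limma was 1 under every setting except sample weights (1390), vehicle 2 left out (3), vehicle 3 left out (7) and vehicle 3 as the sole vehicle library (3), which was assumed to vary like the resveratrol libraries. The sample weights were 4.02 for vehicle 1, 3.55 for resveratrol 2 and between 0.266 (vehicle 3) and 0.786 (resveratrol 3) for the other libraries. With these weights 4 of 32 members passed, where 1390 of 13574 genes did. Among the 4 were Cacng4 (limma adjusted p 0.0218), Scn9a (0.022) and Cacna2d2 (0.0472), and Cacng7 turned to 0.10. Over single libraries left out, genes past the threshold ranged from 1 to 7, members on the higher side from 5 to 16, and the pore median from -0.36 to 0.04. The log2 fold change then ranged from -0.04 to 0.29 for Cacnb4, -0.07 to 0.03 for Scn2a1, -0.18 to 0.14 for Cacna1d, -0.15 to 0.10 for Cacna2d1, -0.42 to 0.01 for Cacna1e, -0.47 to 0.07 for Cacna1a and -0.15 to 0.02 for Cacng7.

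With vehicle 3 as the sole vehicle library, 25 members were higher, with medians of 0.23 (pore) and 0.09 (auxiliary). Among the members with printed errors, the signs that changed there were those of Scn2a1 (0.03), Cacna1d (0.29), Cacna1c (0.33), Cacna1e (0.37), Cacna1a (0.35), Cacna1i (0.23), Cacna2d1 (0.03), Cacna2d2 (0.29), Cacnb3 (0.01) and Cacng4 (0.28). The correction for length and GC content put 11 members on the higher side, with or without the replicate block, and changed the signs of Scn2a1 (0.06), Cacna1d (0.08) and Cacna2d1 (0.03). The cause of these changes was not tested. With the replicate block alone, 0 members passed, 6 were higher, and the smallest limma adjusted p of a member was 0.936. Same-numbered libraries correlated in their deviations from the group means by 0.0383, 0.148 and 0.184, and resveratrol 1 and resveratrol 2 correlated best with libraries of another number, so the numbers were not taken as pairs. Depth is unknown, so counting error at low levels cannot be given.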

Other observations

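Several members are neighbours in the genome. Scn3a, Scn2a1, Scn1a, Scn9a and Scn7a follow each other on chromosome 2 between 65457118 and 66784914 (GENCODE M21, GRCm38), and their mean levels over the 6 libraries ran from 127 ± 6.24 FPKM for Scn2a1 to 2.24 ± 0.267 FPKM for Scn7a (SD over 6 libraries). Shared 50-base stretches made up 4.03% of Scn1a, 4.04% of Scn9a, 5.76% of Scn2a1 and 6.49% of Scn3a. The ratio of Scn3a, the pore of immature neurons, to Scn1a was 0.134, 0.187 and 0.195 in the resveratrol mice and 0.26, 0.241 and 0.169 in the vehicle mice, and the groups overlapped because vehicle 3 lay below 2 resveratrol mice. On chromosome 11, Cacng4 and Cacng5 are both on the minus strand, and their group means were 6.69 ± 2.35 and 1.99 ± 0.587 FPKM in the resveratrol mice and 11.5 ± 5.89 and 2.42 ± 0.674 FPKM in the vehicle mice (SD, n = 3 each).

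Markers of cells that line the ventricles also differed between libraries. The 6 choroid plexus markers summed to 142, 48.4 and 455 FPKM in the resveratrol mice and 16.3, 51.7 and 113 FPKM in the vehicle mice. Most of each sum was 1 gene, Ttr, with 137, 43.2 and 441 FPKM in the resveratrol mice and 13.3, 46.4 and 108 FPKM in the vehicle mice. The 5 ependymal markers summed to 9.34, 8.12 and 8.96 FPKM in the resveratrol mice and 12.6, 13.3 and 12.2 FPKM in the vehicle mice, with no overlap. None of these markers passed the threshold in limma. An unadjusted p under 0.05 was found for 1 of 6 choroid plexus and 3 of 5 ependymal markers, against 2.42% of all genes. Singly, 1 of 6 and 3 of 5 did not overlap between the groups, against 6.28% of all genes. The summed oligodendrocyte markers were also just apart, with 1184 to 1391 FPKM in the resveratrol mice and 1391 to 1479 FPKM in the vehicle mice. The relation of these marker lists to the channel genes was not tested.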
